A study of Populus trichocarpa with 9 samples.

Results

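The GFP control of an RNA-seq experiment on xylem protoplasts of *Populus trichocarpa* (black cottonwood, genotype Nisqually-1) is described here on its own, as the state of these cells when no transcription factor (TF) was added. Its members are the 3 libraries labelled GFP, of 9 libraries in all, and every one of the 41335 genes of the deposited table was read in them. The protoplasts, cells freed of their walls by enzymes, came from stem-differentiating xylem (SDX) of 6-month-old trees. They were transfected with a plasmid carrying sGFP (a green fluorescent protein) behind the viral 35S promoter, and RNA was taken after 12 h. The other 6 libraries received plasmids that carry PtrHSFB3-1 or PtrMYB092 (3 libraries each) beside the same sGFP. All 9 thus share sGFP and the procedures of isolation and transfection. Which of them came from the same preparation of protoplasts is not stated. The level of the sGFP transcript was not analysed here. No comparison between constructs was made.

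Differentiating xylem builds thick secondary walls from cellulose, xylan, mannan and lignin. Cellulose is spun at the plasma membrane by complexes of cellulose synthases, the CesA proteins, with a set of CesA genes used for secondary walls. Lignin is polymerized in the wall from monolignols, which the cell makes from phenylalanine by a chain of enzymes that begins with phenylalanine ammonia-lyase (PAL) and ends with cinnamyl alcohol dehydrogenase (CAD). A protoplast has lost the wall that these products would enter, while its nucleus keeps transcribing.

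The genes described are the 32 that the study's primer and gene tables name. They comprise 22 monolignol genes, 5 secondary wall CesA genes, PtrCslA2 and PtrIRX10-1 of hemicellulose synthesis (29 wall genes together), the TFs PtrHSFB3-1 and PtrMYB092, and PtrActin. Many of them are close paralogs. The primers that the study designed for quantitative PCR are printed for some pairs, 5′ to 3′ in lower case, with capitals at the positions where a pair differs once aligned. Primers cover short stretches only and do not measure how alike whole genes are. The forward primers of PtrPAL1 and PtrPAL3 share 23 of 24 aligned positions, and those of PtrPAL4 and PtrPAL5 share 23 of 25. The reverse primers of these pairs are identical over their 25 and 21 aligned positions. The primers of PtrC4H1 and PtrC4H2 are less alike, with 15 of 23 positions shared by the forward primers and 21 of 24 by the reverse. Those of PtCesA8 and PtCesA18 share 24 of 25 forward and 20 of 25 reverse.
PtrPAL1 forward: ccatccaggtcaaattgaggctgcT
PtrPAL3 forward: catccaggtcaaattgaggctgcA
PtrPAL4 forward: gagatgctggaagctatcaccaaAT
PtrPAL5 forward: gagatgctggaagctatcaccaaGC
PtrC4H1 forward: aGtgCgcCatAgaCcatatCCtC
PtrC4H2 forward: gaaAtgTgcAatTgaTcatatTTtG
PtrC4H1 reverse: attgcagcGacGttgatgttctcA
PtrC4H2 reverse: attgcagcAacAttgatgttctcC
PtCesA8 forward: gttggcctctgtcttctctcttgtC
PtCesA18 forward: gttggcctctgtcttctctcttgtT
PtCesA8 reverse: caatcTatAgaaatgcaggtTtcAC
PtCesA18 reverse: caatcAatGgaaatgcaggtCtcCG
These genes lie on different chromosomes apart from PtrPAL4 and PtrPAL5, whose IDs are consecutive on chromosome 10. How reads shared by such pairs were counted is not given in the sources used here, so the split of a value between these paralogs is uncertain.

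A value in the table is a whole number that the submitters call a raw count. It is treated here as a score on a scale that is not given, because low values of 2 libraries lay closer together than sampled reads would. Of the genes whose values in 2 GFP libraries sum to 2, 91.6% to 95.2% had 1 in each library. Independent draws from libraries of like size would fall into the same library as often as into different ones. Depth in reads is therefore unknown and no counting interval is given, and genes with a 0 are said to be listed at 0. The GFP columns summed to 464096, 430158 and 477966 for replicates 1, 2 and 3, within the range of 428358 to 495579 of the other 6 libraries. Gene lengths were not used, so a level or rank is that of the deposited value and not per length. In RNA from a population of protoplasts, fewer cells of a type and less RNA per cell cannot be told apart.

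GFP replicate 1 stood apart from replicates 2 and 3. After scaling with the trimmed mean of M values (TMM), which sets libraries to a common size through their middle genes, replicates 2 and 3 differed over 2-fold in 3.55% of the 6852 genes with a mean of at least 10. For replicates 1 and 2 the share was 11.5%, and for replicates 1 and 3 it was 11.4%. The Pearson correlation across these genes, on the log2(value + 1) scale, was 0.948 between replicates 2 and 3, 0.863 between 1 and 2 and 0.877 between 1 and 3, and genes are not independent replicates. The study calls the libraries biological replicates, while the labels do not say whether they came from separate trees. Values are therefore given for each library, and a mean or rank of a wall gene that moved by over 1.5 times without replicate 1 is also given without it where it is named.

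Over the whole table, 16848 genes were listed at 0 in all 3 GFP libraries, which is 40.8% of the genes, and 24487 were above 0 in at least 1. A gene is called on here with a value of at least 10 in all 3 libraries, which held for 5871 genes or 14.2%. Another 33257 genes (80.5%) stayed under 10 in all 3, and 2207 reached 10 in only 1 or 2 libraries. Values of at least 100 in all 3 were reached by 649 genes and of at least 1000 by 10. Only 10 of these 2207 were listed at 0 in 1 or 2 libraries, so the others were above 0 in every library.

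A modest number of genes held much of the total. The 10 highest genes of a library held 5.99%, 6.51% and 9.26% of its total in replicates 1, 2 and 3, the 100 highest held 20.1%, 19.7% and 23.5%, and the 1000 highest 55.6%, 52.5% and 57.3%. The 100 highest had 62 genes in common to all 3 libraries. The highest gene, Potri.001G068900, had values of 7285, 10247 and 18510, or 1.57%, 2.38% and 3.87% of the totals. It was thus 2.49-fold higher in its highest library than in its lowest. The next, Potri.014G108800, had 3918, 3123 and 6628. The sources used here pair neither ID with a name. None of the 29 wall genes was among the 100 genes with the highest mean, whose lowest mean was 424, and 2 were among the 1000 highest, Ptr4CL3 at rank 389.5 and PtrCAD1 at rank 925. Without replicate 1 these ranks were 807 and 747.5. Genes with equal means share a rank, so a rank may end in 0.5.

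**Figure D1:**
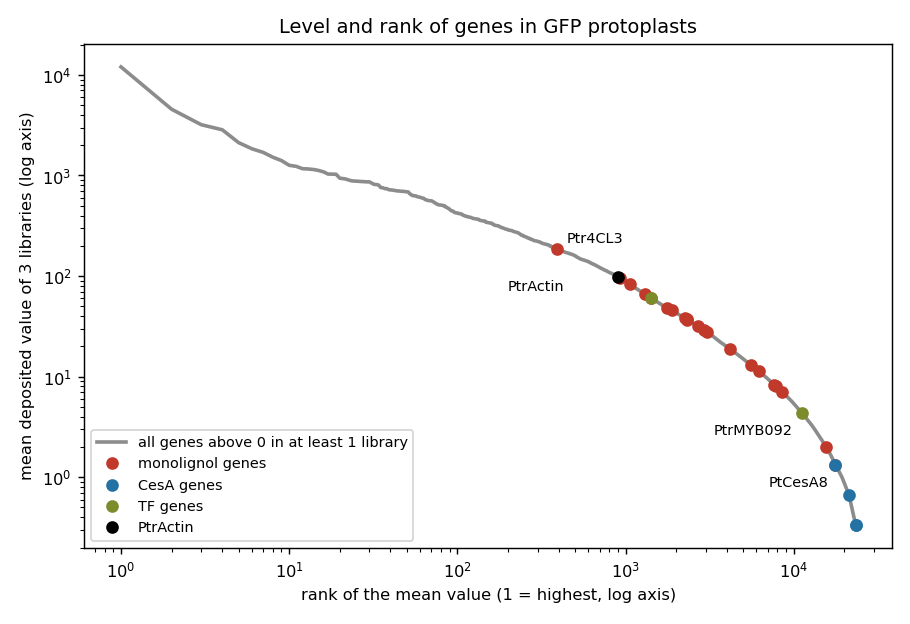
Mean deposited value of the 3 GFP libraries (vertical, log axis) against the rank of that mean (horizontal, log axis) for the 24487 genes above 0 in at least 1 library, as a grey line, with the named genes above 0 as points. Ptr4CL3, with a mean of 187 (105.5 without replicate 1, when PtrCAD1 is higher with 111.5), is the highest wall gene, PtrActin lies beside PtrCAD1 near a mean of 100, and the 4 CesA genes above 0 lie at the low end of the line.

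The 7 named genes for polysaccharides of the secondary wall were at or near 0, and other genes of these pathways were not looked up. PtCesA8, a cellulose synthase of the secondary wall, had values of 1, 2 and 1, and PtCesA17 had 0, 2 and 0. PtCesA4 and PtCesA7 each had 0, 1 and 0. PtCesA18 was listed at 0 in all 3, as were PtrCslA2, of the family that makes mannan, and PtrIRX10-1, whose family builds the backbone of xylan. Each of these 7 genes therefore stayed under 10 in all 3 GFP libraries, as 80.5% of all genes did. Summed over the 5 CesA genes, the value was 1, 6 and 1, and replicate 2 held all of the values of PtCesA4, PtCesA7 and PtCesA17. These CesA genes mark xylem that is forming secondary walls, so markers of the labelled tissue were listed at 0 to 2 here. In contrast, 13 of the 22 monolignol genes were on in all 3 libraries (59.1%, beside 14.2% of all genes). What a low value means in transcripts per cell is unknown, as is the treatment of reads shared by PtCesA8 and PtCesA18.

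Of the 22 monolignol genes, 13 were on in all 3 libraries (59.1%, against 14.2% of all genes). A further 6 reached 10 in only 1 or 2 libraries, and 3 stayed under 10 in all 3. The median of their means was 30.3, beside 0.667 over all genes. The list holds genes that the study chose to measure, so the difference from all genes describes the list and was not tested. By library, 19 monolignol genes had at least 10 in replicate 1, 14 in replicate 2 and 13 in replicate 3, although the share of all genes at or over 10 was 16.7%, 17.2% and 16.5%. Summed over the pathway, the values were 1456, 576 and 537, or 0.314%, 0.134% and 0.112% of the totals.

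**Figure D2:**
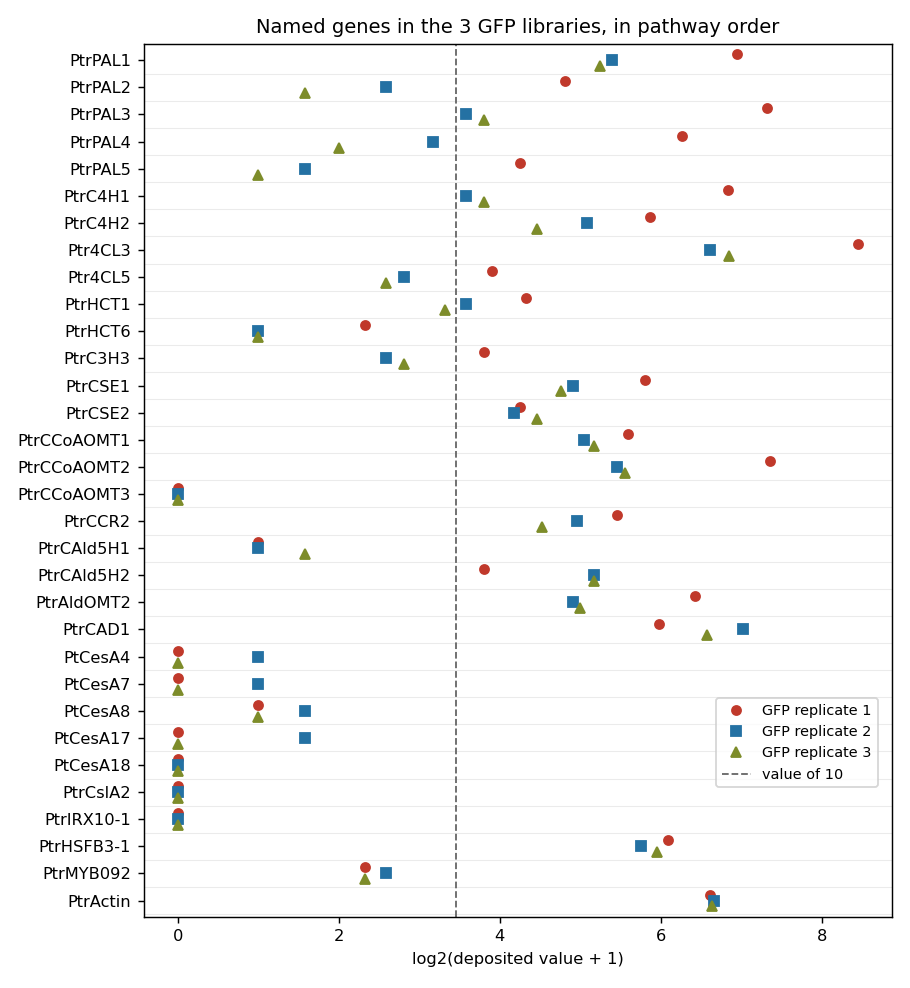
Deposited values of the 32 named genes, as log2(value + 1), with 1 point for each GFP replicate and the genes in the order of the pathway from top to bottom. The dashed line marks a value of 10. Most monolignol genes lie to the right of the line with replicate 1 outermost, the CesA and hemicellulose genes lie far to its left, at values of 0 to 2, and the 3 points of PtrActin overlap near 98.

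The PAL genes turn phenylalanine into cinnamic acid, and their summed value differed most between libraries among the monolignol steps. PtrPAL1 had values of 122, 41 and 37 in replicates 1, 2 and 3 (66.7 ± 48.0, SD, n = 3). PtrPAL3 had 158, 11 and 13 (60.7 ± 84.3, SD, n = 3). PtrPAL4 had 76, 8 and 3, and PtrPAL2 had 27, 5 and 2. PtrPAL5 was lowest, with 18, 2 and 1. Replicate 1 was the highest library for all 5, and replicates 2 and 3 were both below it. The 5 genes summed to 401, 67 and 56, so replicate 1 held 6.52 times the mean of the other 2 libraries. Without replicate 1 only PtrPAL1, with a mean of 39.0, and PtrPAL3, with 12.0, remained at or over 10.

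The leading PAL paralog was also a matter of the library. PtrPAL3 held 39.4% of the PAL sum in replicate 1, against 16.4% and 23.2% in replicates 2 and 3. PtrPAL1 held 30.4% in replicate 1 and 61.2% and 66.1% in the others. PtrPAL4 took 19%, 11.9% and 5.36%. The forward primers of PtrPAL1 and PtrPAL3 printed above differ at 1 aligned position, and the part that the counting of shared reads has in these shares was not tested.

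Cinnamate 4-hydroxylase (C4H) adds the first hydroxyl group to the ring. PtrC4H1 had 113, 11 and 13, and PtrC4H2 had 57, 33 and 21. PtrC4H1 was the higher of the pair in replicate 1, with 66.5% of their sum, and the lower in replicates 2 and 3, with 25.0% and 38.2%. The pair summed to 170, 44 and 34. Without replicate 1 the means were 12.0 for PtrC4H1, in place of 45.7, and 27.0 for PtrC4H2, in place of 37.0. Replicate 1 was 9.42-fold above the mean of replicates 2 and 3 for PtrC4H1 and 2.11-fold for PtrC4H2.

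The ligase 4CL, which joins the hydroxycinnamic acid to coenzyme A, was led in every library by Ptr4CL3. This gene had 349, 97 and 114 (187 ± 141, SD, n = 3), the highest mean of any wall gene over the 3 libraries. Without replicate 1 its mean was 105.5, below the 111.5 of PtrCAD1. It ranked 158th, 832nd and 777th within the libraries. Ptr4CL5 had 14, 6 and 5. Ptr4CL3 thus held 96.1%, 94.2% and 95.8% of the 2 genes' sum, and unlike the PAL and C4H shares this split stayed within 2 percentage points between libraries while its level moved by 3.31-fold between replicate 1 and the mean of the others.

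The shikimate ester steps had lower values. PtrHCT1, for the transferase that moves the coumaroyl group onto shikimate, had 19, 11 and 9, and PtrHCT6 had 4, 1 and 1. PtrC3H3, for the hydroxylase of that ester, had 13, 5 and 6. PtrCSE1, for an esterase that frees caffeic acid from the ester, had 55, 29 and 26. Its paralog PtrCSE2 had 18, 17 and 21 (18.7 ± 2.08, SD, n = 3). The libraries overlapped for PtrCSE2, with replicate 3 highest, and it was the monolignol gene with the smallest spread among those with a mean of at least 10, with an SD of 0.13 on the log2 scale.

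Among the caffeoyl-CoA O-methyltransferase (CCoAOMT) genes, which methylate the ring on the way to guaiacyl lignin, PtrCCoAOMT2 had 162, 43 and 46 (83.7 ± 67.9, SD, n = 3, with a mean of 44.5 without replicate 1). PtrCCoAOMT1 had 47, 32 and 35 (38.0 ± 7.94, SD, n = 3), and PtrCCoAOMT3 was listed at 0 in all 3. PtrCCoAOMT2 held 77.5% of the sum in replicate 1, against 57.3% and 56.8% in replicates 2 and 3. The 2 expressed genes therefore lay close together in replicates 2 and 3 and apart in replicate 1.

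The late genes did not all follow the early ones. PtrCCR2, for cinnamoyl-CoA reductase, the first enzyme committed to monolignols, had 43, 30 and 22. PtrAldOMT2, for the methyltransferase that acts on 5-hydroxylated aldehydes on the way to syringyl lignin, had 85, 29 and 31, with a mean of 48.3 over the 3 libraries and 30 without replicate 1. PtrCAld5H2, for the 5-hydroxylase that leads into the syringyl branch, had 13, 35 and 35 (27.7 ± 12.7, SD, n = 3), so replicate 1 was the low library. Its paralog PtrCAld5H1 was near 0, with 1, 1 and 2. PtrCAD1, for the dehydrogenase that reduces the aldehydes to monolignols, had 62, 129 and 94 (95 ± 33.5, SD, n = 3), and was again lowest in replicate 1.

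**Figure D3:**
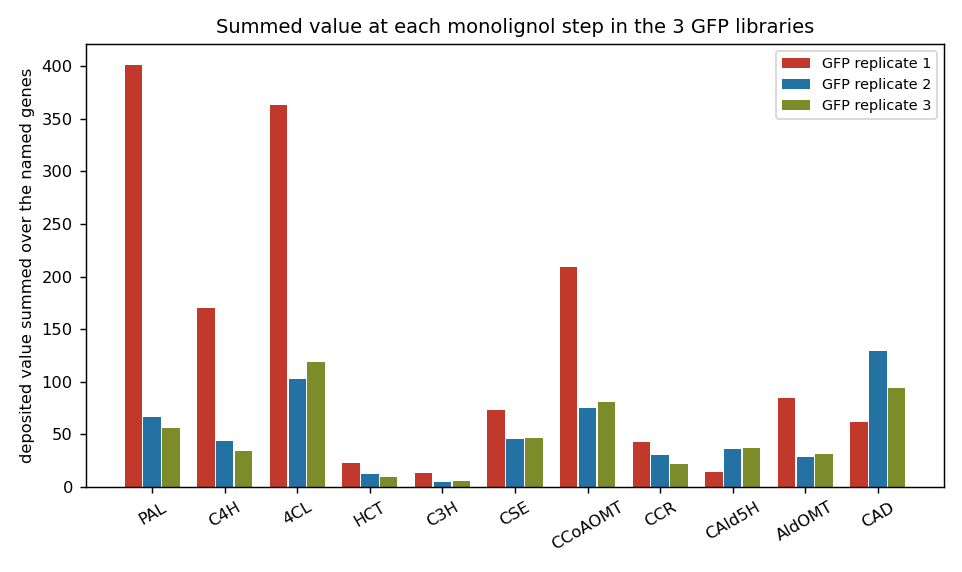
Deposited values summed over the named genes of each monolignol step, in pathway order, with 1 bar for each GFP replicate. Replicate 1 has the tallest bar from PAL through CCR and at AldOMT, and the shortest at CAld5H (14, against 36 and 37) and CAD (62, against 129 and 94).

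Along the pathway, replicate 1 was thus 6.52-fold above the mean of replicates 2 and 3 at PAL, 4.36-fold at C4H and 3.27-fold at 4CL. It was 2.09-fold above at HCT, 2.36-fold at C3H and 1.57-fold at CSE. The ratio was 2.68 at CCoAOMT, 1.65 at CCR and 2.83 at AldOMT. It was 0.384 at CAld5H and 0.556 at CAD. PAL, C4H and 4CL together held 64.1% of the monolignol sum in replicate 1, against 37.2% and 38.9% in replicates 2 and 3, whereas CAld5H and CAD held 5.22%, against 28.6% and 24.4%. The highest monolignol gene was Ptr4CL3 in replicates 1 and 3 and PtrCAD1 in replicate 2.

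**Figure D4:**
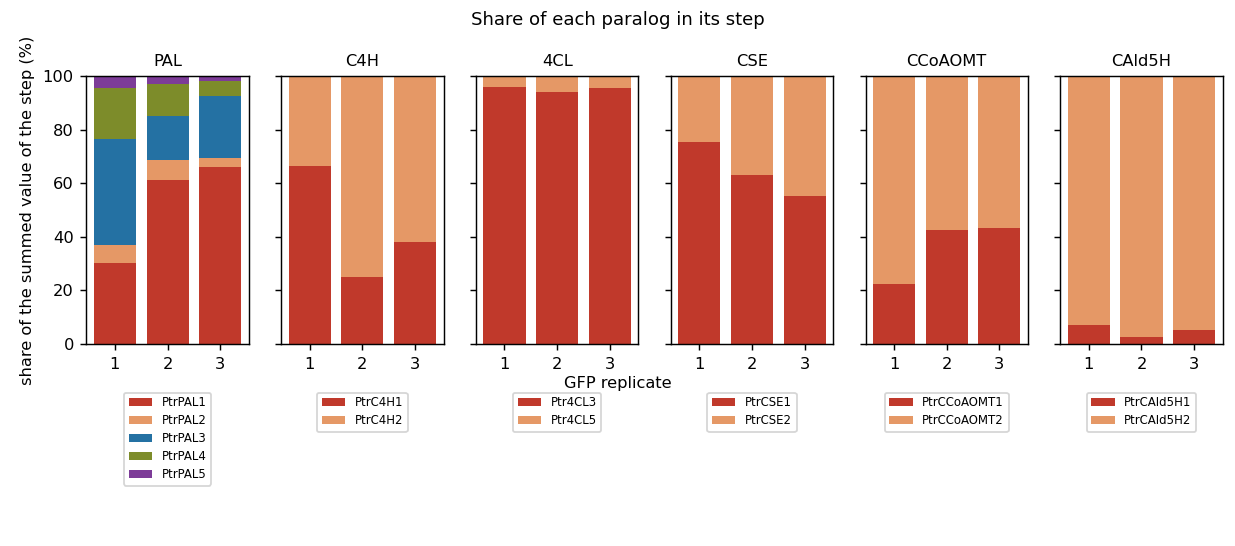
Share of each named paralog in the summed value of its step, in percent (vertical), for GFP replicates 1, 2 and 3 (horizontal), with 1 panel for each of 6 steps and 1 colour for each paralog. The splits of PAL, C4H and CCoAOMT in replicate 1 differ from those in replicates 2 and 3, while Ptr4CL3 and PtrCAld5H2 hold over 92% of their steps in all 3.

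PtrActin and PtrHSFB3-1, named genes outside the wall pathways, were steadier than most monolignol genes. PtrCSE2, with an SD of 0.13 on the log2 scale, was steadier than PtrHSFB3-1 (0.16). PtrMYB092 had an SD of 0.17, but its values were under 10, where values lie closer together than sampled reads would. Its steadiness is therefore not compared. PtrActin, a cytoskeleton gene among those with primers in the study, had 97, 100 and 98 (98.3 ± 1.53, SD, n = 3). After scaling its SD was 0.04 on the log2 scale, and 94 of the 6852 genes with a mean of at least 10 had a smaller one. PtrHSFB3-1, a heat shock factor of the B class and here the tree's own gene alone, had 67, 53 and 61 (60.3 ± 7.02, SD, n = 3). PtrMYB092, a MYB factor, had 4, 5 and 4, so the tree's own copy was under 10 in every GFP library. Relative to PtrActin of the same library, Ptr4CL3 was at 1.85, -0.04 and 0.22 on the log2 scale, and PtrPAL3 at 0.70, -3.18 and -2.91. The 16 wall genes with a mean of at least 10 had a median of -1.61 on this scale (range of -1.88 to -1.32 when each library was left out in turn), so most lay below PtrActin. Against the median of all genes with a mean of at least 10, the same median was 0.45.

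The spread of the monolignol genes was set beside that of the whole table. Over all genes with a mean of at least 10, the median SD between the 3 libraries was 0.27 on the log2 scale, and 1171 genes (17.1%) had a range over 2-fold. For the 16 monolignol genes that passed this filter, the median SD was 0.82. Without replicate 1 it was 0.13 for the same 16 genes, beside 0.18 for all genes with a mean of at least 10 over replicates 2 and 3. The 16 genes were not filtered again in this way. A median SD over 2 libraries tends to be lower than over 3, so these values are not directly comparable with 0.82 and 0.27. The filter over all 3 libraries can be passed through replicate 1 alone, as it was by PtrPAL2 and PtrPAL4. The following counts therefore describe the genes that passed and not all 22. Replicate 1 was the highest library for 13 of the 16, a position it held for 36.6% of all genes tested. It was over 2-fold above both other libraries for 8, against 281 or 4.1% of all genes. These were PtrPAL1, PtrPAL2, PtrPAL3, PtrPAL4, PtrC4H1, Ptr4CL3, PtrCCoAOMT2 and PtrAldOMT2. It was over 2-fold below both for 1, PtrCAld5H2, against 199 or 2.9% of all genes. By comparison, replicate 2 was over 2-fold above both others for 31 genes of the table and replicate 3 for 29. Genes of 1 pathway are not independent of each other, and close paralogs can share reads, so the 16 genes are not 16 separate observations.

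**Figure D5:**
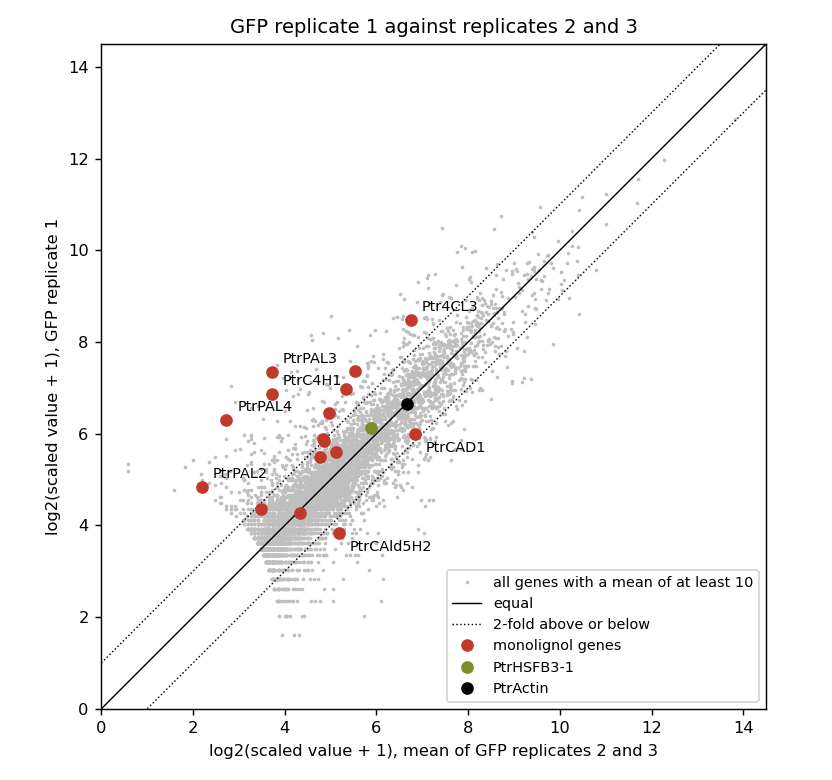
TMM-scaled values of the 6852 genes with a mean of at least 10, as log2(scaled value + 1), in GFP replicate 1 (vertical) against the mean of GFP replicates 2 and 3 (horizontal), with the monolignol genes in red. The solid line marks equal values and the dotted lines a 2-fold difference. PtrPAL3, PtrPAL4 and PtrC4H1 lie farthest above the line among the red points, PtrCAD1 and PtrCAld5H2 lie below it, and PtrActin lies on it.

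The genes that set replicate 1 apart did so in the other constructs too. Of the 281 genes over 2-fold higher in GFP replicate 1, replicate 1 was the highest of the 3 PtrHSFB3-1 libraries for 277 and the highest of the 3 PtrMYB092 libraries for 274. Over all 6852 genes, replicate 1 was highest for 34.8% and 38.1% in those constructs. Of the 199 lower genes, it was the lowest library for 182 with PtrHSFB3-1 and for 193 with PtrMYB092, where 47.0% and 39.3% of all genes had it lowest. The labels and the study do not say what a replicate number stands for, so what these libraries shared cannot be named from them.

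Spread between the GFP libraries was present at all levels. The median SD on the log2 scale was 0.26 for genes with a mean of 10 to under 20, 0.28 from 50 to under 100 and 0.35 at 300 or more, and the share of genes with a range over 2-fold was 14.8%, 20.1% and 29.5% in these classes. Of the 100 highest genes, 34 had a range over 2-fold. The largest SDs belonged to Potri.001G463400, with 39, 0 and 1, and Potri.016G034600, with 35, 0 and 1, for which no name is given. Of the 20 genes with the largest SD, 18 were highest in replicate 1, as were 36.6% of all genes with a mean of at least 10. Among the 18 were PtrPAL4 with the seventh largest SD and PtrPAL3 with the fourteenth. Some of the 20, such as PtrPAL4, reach that mean only through replicate 1, so the count of 18 is partly set by the filter. Without replicate 1 only 220 genes had a range over 2-fold, against 776 without replicate 2 and 799 without replicate 3.

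Genes that respond to tension wood formation, the wood that a bent stem makes on its upper side, were also looked up. The list used is the study's list of 391 genes changed after 3 d of bending in stem xylem outside this series, and all were in the table. A further list, after a longer bending, was not used here. In the GFP protoplasts 57 were on in all 3 libraries (14.6%, beside 14.2% of all genes) and 204 were listed at 0 in all 3 (52.2%, beside 40.8%). The 244 that the study lists as induced had 24 genes on, or 9.84%, and the 147 listed as repressed had 33, or 22.4%. Of the 158 that it flags as specific to xylem, 22 were on (13.9%) and 77 were at 0 (48.7%). Pooled, these xylem-specific genes were thus on in the protoplasts at about the share of all genes. By direction, 6 of the 73 induced ones (8.22%) and 16 of the 85 repressed ones (18.8%) were on. Replicate 1 was over 2-fold above both others for 13 of the 67 genes of the list with a mean of at least 10 (19.4%, beside 4.1% of all genes) and below both for 2 (2.99%, beside 2.9%). That mean can be reached through replicate 1 alone, and any overlap of the list with the monolignol genes was not counted. Among those flagged as xylem-specific it was above for 3 of 26 (11.5%) and below for 0, and among the rest it was above for 10 of 41 (24.4%) and below for 2 (4.88%).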

How the data were processed

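SDX protoplast RNA was made into libraries with the TruSeq kit and sequenced on HiSeq instruments. The authors mapped reads to the P. trichocarpa v3.0 genome with Bowtie 2, and the submitters' notes list TopHat. The sources used here do not give the gene counter, its use of strand or what became of shared reads. The deposited values, whole numbers labelled raw counts, are used here as a score because low values scatter less than reads can. Depth is unknown, so the number of libraries limits the precision.

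The 3 GFP columns were read with pandas 2.3.3 (Python 3.11.15, numpy 2.4.6), and 0 columns belonged to no sample. Levels and ranks are of deposited values. For the spread, values were scaled by TMM (trims of 30% of ratios and 5% of levels) over genes of at least 10 in every library, a restriction chosen after the data were seen, and put on the log2(value + 1) scale for genes with a mean scaled value of at least 10. A fold change on that scale is understated for low genes.

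With 1 group there is no test. The members and lists were chosen with earlier results of these data known. Named genes are the 32 with a name in the study's tables, the 2 with the highest mean and the 2 with the largest SD. As 0 of the 41335 IDs matched the reference table, names are the study's, and coordinates and lengths are not given. Alternatives were each library left out, other minimums, scalings, pseudocounts, fold limits, references and summaries.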

Additional observations from a re-analysis of the deposited data

How the results depend on the processing

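No paired analysis was possible because the report concerns 1 group and makes no test. Leaving out each GFP library in turn gave 14 to 18 wall genes with a mean of at least 10 (16 with all 3), a median rank of the wall genes above 0 of 2447 to 5937 (3056 with all 3, and 5937 without replicate 1), and 220 to 799 genes with a range over 2-fold, in place of 1171. A range over 2 libraries is smaller than over 3 by construction. A minimum of 5 in place of 10 gave 9346 genes on in all 3 libraries and a minimum of 20 gave 3346, in place of 5871. Without a filter beyond a value above 0, 7060 genes had a range over 2-fold, and replicate 1 was over 2-fold above both others for 1483 and below for 474. With a mean of at least 50 these counts were 387, 116 and 71, and 4 monolignol genes were above in place of 8. With a limit of 1.5-fold they were 2891, 595 and 594. A pseudocount of 5 left 126 genes below in replicate 1, in place of 199. With the median of all genes with a mean of at least 10 as the reference in place of PtrActin, the median wall gene lay at 0.45 in place of -1.61 on the log2 scale, so the sign of that value depends on the reference. The other 107 recomputed summary values stayed within 1.5 times the main count or within an SD of the main value. So did the 64 for single genes. Among the 107 were those of TMM over every gene above 0, a setting chosen after seeing the data. The SD was that between libraries. Leaving out 1 of 3 libraries cannot move a mean by that much, so in that check levels and shares had to stay within it. PtrPAL3 did so while its mean fell from 60.7 to 12.0 without replicate 1. For the median SD, 0.27, the SD used was that across genes, 0.29, so no lower value could fall outside.

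The limits are the unknown scale and depth of the values, levels that are not per length, 3 libraries whose independence is not stated, and the unknown treatment of reads shared by paralogs.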

Other observations

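The IDs of P. trichocarpa genes are numbered along each chromosome, so consecutive numbers mark neighbours. Of the 281 genes over 2-fold higher in GFP replicate 1, 53 (18.9%) had a neighbour in the same set, whereas 1.19% of the 6571 other genes with a mean of at least 10 had a neighbour in it. Of the 199 lower genes, 33 (16.6%) had a neighbour in their set, and 1.25% of the others did. Neighbours were also frequent in sets not chosen by replicate 1. Of the 100 highest genes, 25% had a neighbour in their set, against 0.40% of all other genes in the table. For the genes on in all 3 libraries the share was 34.8%, against 24.5% of the others. Neighbouring copies of a gene can share reads, and how these were counted is not given, so what part they have in these numbers was not tested.

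The share of genes above 0 in at least 1 GFP library lay between 51.1% on chromosome 19 and 64.9% on chromosome 10, and was 48.2% for genes on unplaced scaffolds. The share on in all 3 libraries was 7.85% on the scaffolds, against 11.6% to 16.9% on the 19 chromosomes.

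The quantitative PCR primers listed for PtrCCR2 resemble those of PtrCCoAOMT1, which encodes another enzyme. The forward primers share 20 of 25 aligned positions and the reverse primers 22 of 25, with capitals where they differ. The forward primers of PtrCCoAOMT1 and its paralog PtrCCoAOMT2 share 8 of 21. Whether the PtrCCR2 entry is an error of the list cannot be told from these files, and the PtrCCR2 values above come from its gene ID and not from the primers.
PtrCCoAOMT1 forward: cAgtAattcagaaagctggtGtTgC
PtrCCR2 forward: cGgtGattcagaaagctggtCtGgA
PtrCCoAOMT1 reverse: gcatccacaaagatgaaAtcaAaaC
PtrCCR2 reverse: gcatccacaaagatgaaGtcaTaaG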
